A study of Mus musculus with 6 samples.

Results

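The chromosome ends described here are the first and the last 3 Mb of each of the 19 mouse autosomes that the CpG table covers, measured by whole-genome bisulfite sequencing. Mouse chromosomes are telocentric, so the first listed CpGs lie next to the centromere and the last ones lie towards the distal telomere. Each chromosome was cut into 1 kb windows, and a window belonged to an end by its distance from the first or last listed CpG alone. Windows with more than 3 times the median number of reads per CpG, called high-copy here, were left out. This kept 110438 windows with 929581 CpGs, which is 4.73% of the 2335885 autosomal windows with a listed CpG. Of these, 54993 windows lay at the centromere-near ends and 55445 at the distal ends, and 370 high-copy windows of the ends were left out. All positions are on the mouse build mm9, where the first window of all 19 chromosomes starts at position 3000001.

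The DNA came from LSK cells, the lineage-negative bone marrow fraction that carries Sca-1 and c-Kit and holds blood stem cells and early progenitors. WT cells came from wild-type mice and DKO cells from Tet2/3 DKO mice, which lack both Tet2 and Tet3, with 3 samples a group that the labels call biological replicates. The labels used here do not say how or when the genes were deleted, the age of the mice, or whether a sample is 1 animal, so p-values measure the spread between these samples. DNA carries no expression markers, so the cell type was taken from the labels.

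Chromosome ends differ from chromosome arms in their DNA. The region next to a mouse centromere borders long arrays of satellite repeats, which the assembly represents poorly, while the distal end leads into subtelomeric DNA and the telomere repeats. Both neighbours are usually packed as methylated heterochromatin. Methyl groups are placed on CpGs by DNA methyltransferases, and TET enzymes oxidise them as a step towards their removal, with Tet2 and Tet3 the main members in blood cells. Bisulfite sequencing reads methylated and hydroxymethylated cytosine alike, so a level is the sum of both.

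A level is methylated read calls over all read calls, in percent, and a difference between levels is given in percentage points. The samples held 70815948 to 72747248 read calls in WT and 83560585 to 111763872 in DKO. At the ends this was 3.22 to 3.51 reads per CpG in WT and 3.82 to 5.62 in DKO. Relative to all autosomal windows of the same sample, depth was 0.972 to 0.981 at the centromere-near ends and 1.02 to 1.07 at the distal ends. DKO replicate 2 stood apart in how its reads were spread over windows, with a chi-square per degree of freedom of 111 and 74.0 against the other DKO samples, while all other pairs within a group gave 9.91 to 20.6. The methylated share of mitochondrial calls, a measure of incomplete conversion, was 1.28% ± 0.0797 (SD, n = 3) in WT and 1.71% ± 0.170 in DKO, a difference of 0.437 points in the same direction as the DKO minus WT differences below, and its part in them was not tested.

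High-copy windows weighed on one kind of end only. They held 54.6% to 58.6% of all reads at the centromere-near ends but 0.253% to 0.322% at the distal ends. Of the 346 such windows near centromeres, 170 lay on chromosome 10, 78 on chromosome 11 and 39 on chromosome 9, and the 39 of chromosome 9 carried 83.2% of their reads. Their level was 83.0% to 85.4% over the 6 samples.

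The sequences of 3 promoters are shown because they overlap end windows whose methylation differed between WT and DKO, so that a reader can see the kind of sequence involved. They were chosen after the values were seen. They are the 250 bases upstream of the start in RefSeq, written 5′ to 3′ with every CpG in capitals. The sequences come from build GRCm38.p6, and each was placed on the mm9 table by the exact spacing of its CpGs.

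A630001O12Rik: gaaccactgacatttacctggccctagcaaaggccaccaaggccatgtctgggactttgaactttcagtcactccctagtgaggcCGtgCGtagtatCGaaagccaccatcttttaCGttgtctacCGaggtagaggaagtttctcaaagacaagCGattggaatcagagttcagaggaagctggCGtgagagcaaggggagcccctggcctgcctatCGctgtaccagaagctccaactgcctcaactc

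Gm35853: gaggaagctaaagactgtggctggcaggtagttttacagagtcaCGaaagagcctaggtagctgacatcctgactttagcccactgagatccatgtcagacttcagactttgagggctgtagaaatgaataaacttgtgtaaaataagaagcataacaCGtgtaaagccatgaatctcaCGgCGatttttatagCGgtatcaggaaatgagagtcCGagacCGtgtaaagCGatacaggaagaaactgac

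Gm29846: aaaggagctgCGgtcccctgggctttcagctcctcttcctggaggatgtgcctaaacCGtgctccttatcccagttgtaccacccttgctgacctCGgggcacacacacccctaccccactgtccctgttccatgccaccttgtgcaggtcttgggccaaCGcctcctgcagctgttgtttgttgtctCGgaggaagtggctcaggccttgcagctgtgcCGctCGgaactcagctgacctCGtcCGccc

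A630001O12Rik lies near the distal end of chromosome 8 (chr8:129372670-129372919, plus strand) and shows 8 CpGs. Read calls over its whole promoter were methylated at 39.3%, 30.8% and 39.1% in the WT samples and at 74.0%, 77.6% and 86.7% in the DKO samples. Gm35853 lies at the distal end of chromosome 15 (chr15:101207963-101208212, plus strand), also with 8 CpGs shown. Its WT samples read 33.3%, 25.9% and 9.52%, and its DKO samples 62.5%, 85.4% and 61.9%. Gm29846 lies at the centromere-near end of chromosome 19 (chr19:3923600-3923849, plus strand) with 9 CpGs shown. It read 23.1%, 31.9% and 31.9% in WT and 93.1%, 78.2% and 80.3% in DKO. At all 3 promoters all 3 DKO samples exceeded all 3 WT samples, on 15 to 120 read calls a sample. A630001O12Rik and Gm35853 had as few as 15 and 18 read calls in a sample, too few to be tested as promoters. Gm29846 was not called in the test of whole promoters described below.

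Both kinds of end were heavily methylated, and the distal ends were the less methylated of the pair. At the centromere-near ends the level was 79.8%, 79.6% and 80.1% in the WT samples and 80.8%, 79.3% and 81.3% in the DKO samples. At the distal ends it was 76.9%, 76.4% and 76.9% in WT and 78.5%, 76.7% and 78.5% in DKO. DKO replicate 2 was the lowest DKO sample at both, below all WT samples near centromeres and among them at distal ends. The centromere-near level exceeded the distal level in all 6 samples, by a mean of 2.85 points ± 0.347 (SD; two-sided exact sign-flip test, p = 0.031, the smallest that 6 samples allow). For comparison, the interior of the chromosomes read 80.8% ± 0.384 (SD, n = 3) in WT samples and 81.8% ± 0.869 in DKO samples.

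Methylation varies with CpG count and the ends differ in CpG count, so each end was compared with interior windows of the same CpG count in the same sample. In the interior, classes of up to 20 CpGs had WT means of 85.7% to 88.3%. The WT mean was 70.0% at 21 to 40 CpGs and 8.33% at over 40. The distal ends held 8.76 CpGs per window, the interior 8.38 and the centromere-near ends 8.07, and 22.0% of distal CpGs lay in windows with more than 20 CpGs, against 16.9% in the interior. The level expected for the distal ends from matched interior windows was 78.2% ± 0.313 in WT and 79.1% ± 1.05 in DKO. The gap between the measured and the expected distal level was -1.48, -1.45 and -1.45 points in WT and -1.10, -1.14 and -1.27 points in DKO. It lay below 0 in 6 of 6 samples, with a mean of -1.31 points ± 0.168 (SD; exact sign-flip test, p = 0.031). Adjusted by Benjamini-Hochberg over the 7 sums over ends tested by exact permutation or sign flips, this p was 0.109, so it does not pass 0.05 after the correction. All 6 samples share the same windows, so the sign-flip test measures how repeatable the gap was between libraries. It cannot say whether distal ends differ from other stretches. Of all 812 blocks of 3 Mb on the autosomes, 36.1% also had a gap below 0 in every sample. The size of the gap varied with how the ends were drawn, with -2.09 points for ends of 1 Mb, -0.503 points for ends of 5 Mb and -3.99 points for 3 Mb without matching. Distal windows were thus less methylated than interior windows of equal CpG count in every sample.

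The centromere-near ends matched the interior closely as a sum over chromosomes. Their gap was -0.120, 0.0678 and -0.0975 points in WT and -0.0783, -0.142 and -0.167 points in DKO. The mean of -0.0894 points did not pass the exact sign-flip test (p = 0.0625). Its sign changed when single chromosomes were left out. Without chromosome 7 the mean was 0.182 points, without chromosome 19 it was 0.116 and without chromosome 14 it was 0.0835, while leaving out any one of the others gave -0.207 to -0.00496 points. The centromere-near gap exceeded the distal gap in all 6 samples, by 1.23 points on average (exact sign-flip test, p = 0.031, adjusted 0.109). This contrast was 0.629 points when the ends of chromosome 15 were left out, 0.519 with ends of 5 Mb, 2.47 with high-copy windows kept and 2.85 without matching.

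**Figure D1:**
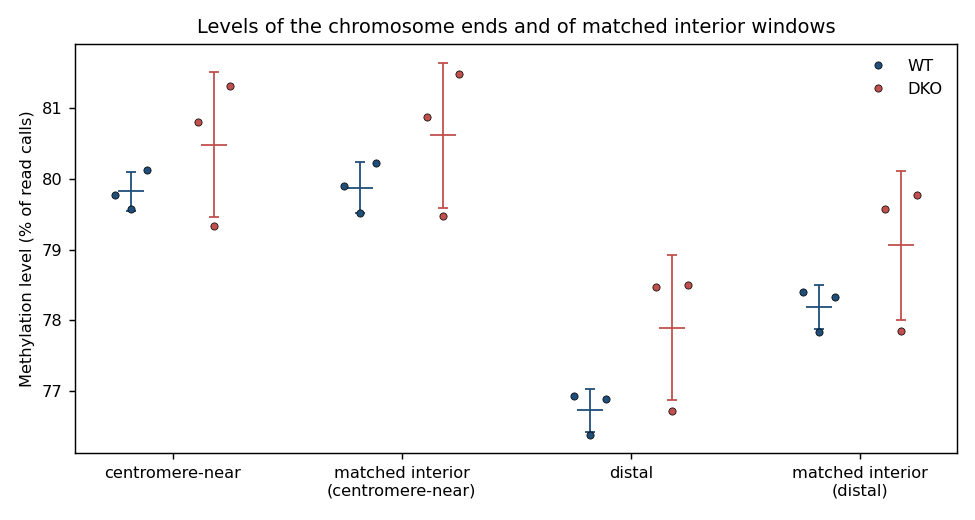
Methylation level (percent of read calls, vertical axis, not starting at 0) of the centromere-near and distal ends and of interior windows matched for CpG count. Points are the 3 WT and 3 DKO samples, and bars give the mean and SD; the distal samples lie 1.10 to 1.48 points below their matched interior level, while the centromere-near samples lie within 0.167 points of theirs.

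The distal deficit varied along the 3 Mb. In the outermost 250 kb the gap was 0.489 points and thus above 0. It then reached -2.58 points at 250 to 500 kb, -3.77 points at 500 to 750 kb and -2.17 points at 750 to 1000 kb, and lay between -1.70 and -0.0334 points further in. All 6 samples were below 0 in each of the steps from 250 to 1750 kb. Chromosome 15 held much of this dip, and without its distal end the 3 steps from 250 to 1000 kb had gaps of -1.45, -0.191 and -1.41 points, with -1.45 to 0.268 points further in. Inward of the 3 Mb limit the gap turned positive, with 0.696 points at 3000 to 4000 kb and 1.95 points at 6000 to 7000 kb. Distal CpG density rose along the same path, from 6.92 CpGs per window in the outermost 250 kb to 10.9 at 2750 to 3000 kb.

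Near centromeres the profile lay on both sides of 0. The lowest step was at 500 to 750 kb with -1.18 points, and the steps at 1000 to 1250 kb and 1250 to 1500 kb had -0.734 and -0.776 points, with all 6 samples below 0 in each of these. The highest step of the 3 Mb was at 2500 to 2750 kb with 0.661 points. The outermost 250 kb, which held 167 of the 346 high-copy windows left out, had a gap of -0.0880 points.

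**Figure D2:**
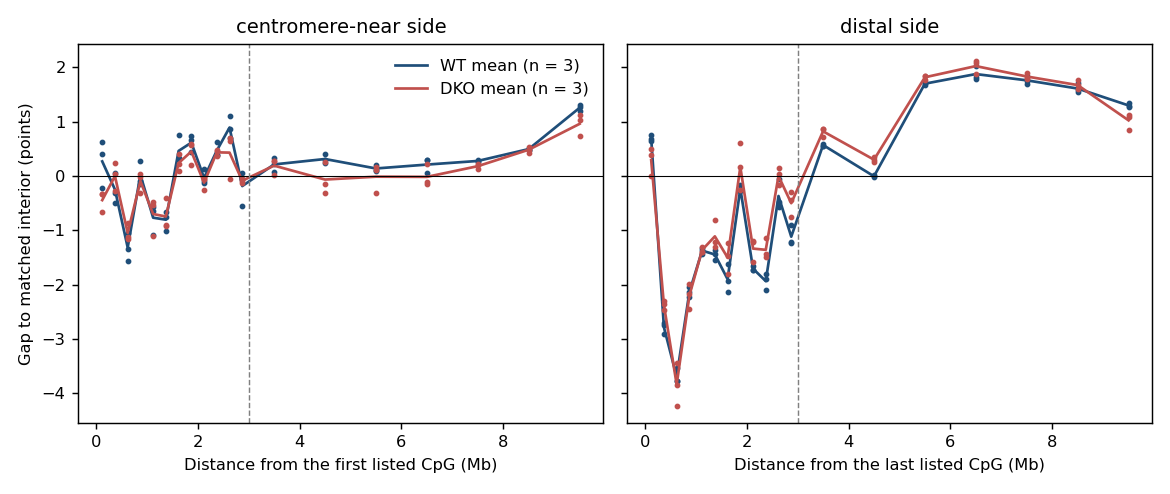
Gap to matched interior windows (points, vertical axis) against distance from the first listed CpG (left) and from the last listed CpG (right), in Mb, in steps of 250 kb up to the dashed line at 3 Mb and of 1000 kb beyond. Lines are group means and points are samples; the distal side dips to -3.77 points at 500 to 750 kb, where the gap was -0.191 points without chromosome 15, and lies above 0 from 3 Mb inward, except in 2 WT samples at 4000 to 5000 kb.

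Split by CpG count, the distal deficit sat in windows of intermediate to high density. The gap was 0.130 points in windows with 1 to 2 CpGs and -0.139 points with 3 to 5. It was -1.08 points with 6 to 10 CpGs, -1.74 points with 11 to 20 and -2.78 points with 21 to 40, each below 0 in 6 of 6 samples. In windows with over 40 CpGs, where CpG islands fall, it was only -0.291 points, at levels of 7.89% ± 0.339 in WT and 8.55% ± 0.105 in DKO. At the centromere-near ends the same classes ranged from -0.494 points at 1 to 2 CpGs to 0.764 points at over 40 CpGs.

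The distal ends also held more windows of intermediate methylation. Among windows of 3 or more CpGs that had 20 or more reads per sample throughout, 6.14% of distal windows had a mean level of 10% to 50%, against 4.80% expected from interior windows of equal CpG count. For levels of 50% to 80% the shares were 11.98% and 10.04%, and for 80% or more they were 77.9% and 81.5%. Distal ends thus had fewer windows at 80% or more, and more in both intermediate classes, than matched interior windows. Near centromeres the shares were close to those expected, with 4.80% against 4.62% at 10% to 50% and 82.0% against 81.9% at 80% or more.

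Single chromosomes differed more than the kinds of end did. Distal gaps, averaged over the 6 samples, ran from -7.50 points on chromosome 15, -3.15 on chromosome 2 and -2.82 on chromosome 7 to 1.03 on chromosome 6, 1.27 on chromosome 13 and 1.52 on chromosome 5, with a median of -1.03. In 11 of the 19 distal ends all 6 samples lay below 0. The same held for 36.1% of all 812 blocks of 3 Mb into which the autosomes were cut. Centromere-near gaps ran from -8.88 points on chromosome 14, -4.50 on chromosome 7 and -2.01 on chromosome 19 to 1.61 on chromosome 15, 1.80 on chromosome 5 and 2.04 on chromosome 13, with a median of 0.671 and 5 of 19 below 0 in every sample. On 13 of 19 chromosomes the distal end had the lower gap. Of the 769 interior blocks the middle 90% lay between -2.99 and 2.48 points, so that most ends fell inside the interior range.

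**Figure D3:**
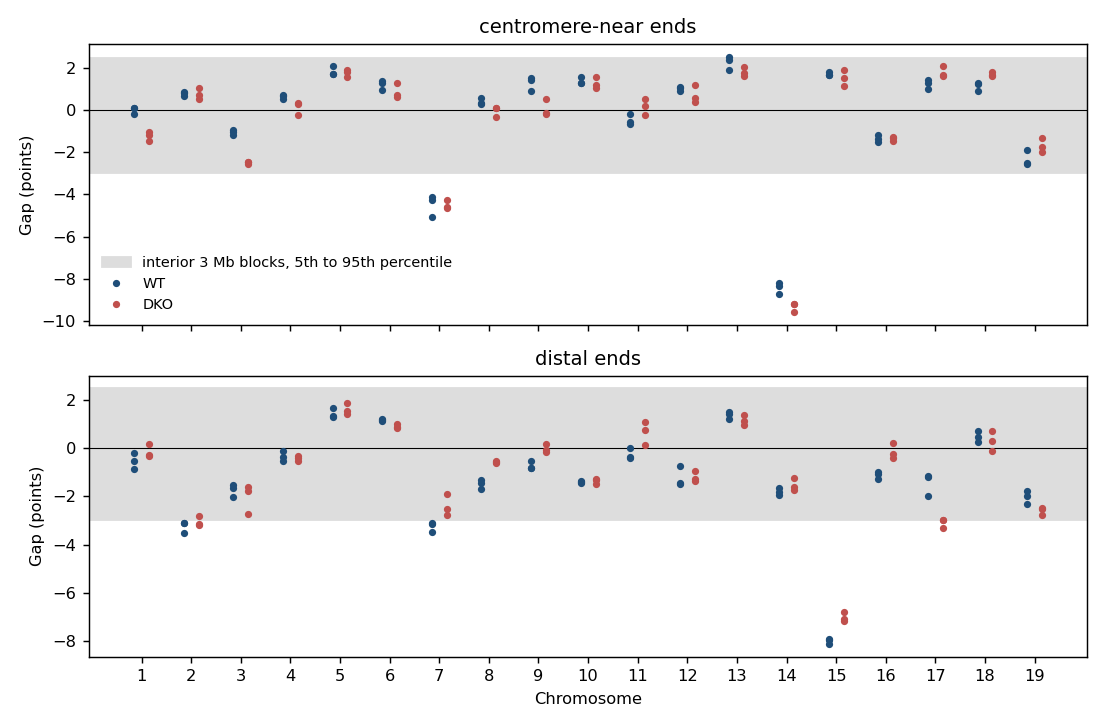
Gap to matched interior windows (points, vertical axis) of each centromere-near end (top) and distal end (bottom) by chromosome; points are the 3 WT and 3 DKO samples and the grey band is the 5th to 95th percentile of the 769 interior blocks of 3 Mb. Chromosomes 14 and 7 near the centromere and chromosome 15 at the distal end lie below the band in all 6 samples.

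The distal end of chromosome 15 (chr15:100495001-103495000) had the lowest level of the 38 ends. Its samples read 65.1%, 65.4% and 64.5% in WT and 67.9%, 66.5% and 68.4% in DKO, and all DKO samples lay above all WT samples. Only 1 of 769 interior blocks had a lower gap. Its lowest stretch lay 500 to 750 kb from the end (chr15:102745001-102995000) and holds the HoxC cluster, a row of homeobox transcription factor genes that pattern the body axis, found here by the promoter of Hoxc4. That stretch read 26.7%, 29.0% and 27.9% in WT and 29.9%, 27.7% and 29.4% in DKO, with overlapping groups. Its gap of -31.7 points was lower than that of all 9140 interior steps of 250 kb.

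The neighbouring step at 250 to 500 kb, with the promoters of Hnrnpa1 (an RNA-binding protein), Cbx5 (a heterochromatin protein) and Itga5 (an integrin subunit), had a gap of -14.5 points. There WT read 53.1%, 52.2% and 51.2% and DKO 59.1%, 55.2% and 56.6%, and the groups did not overlap. At 750 to 1000 kb the gap was -10.4 points. Without these 3 steps the gap of all distal ends was -0.944 points, and without both ends of chromosome 15 it was -0.792 points. Each had an unadjusted exact sign-flip p of 0.031, the smallest that 6 samples allow. These stretches were left out after their values were seen, and the test measures only how repeatable the gap was between libraries.

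The centromere-near end of chromosome 14 (chr14:3000001-6000000) was low along its whole length instead. Its samples read 71.3%, 70.3% and 71.7% in WT and 71.4%, 67.7% and 72.2% in DKO, with overlapping groups. The gap was below 0 in all 12 steps of 250 kb, and the lowest was -11.97 points at 2250 to 2500 kb, around the predicted gene Gm3500. This end had 29246 to 40416 read calls a sample on 16127 CpGs, whereas the centromere-near end of chromosome 1 had 48609 to 74388 on 16428 CpGs, so it was read less deeply. The part of depth in its level was not tested.

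The centromere-near end of chromosome 7 read 70.4%, 70.2% and 70.8% in WT and 71.6%, 70.8% and 72.5% in DKO, with a single DKO sample inside the WT range. Its lowest steps were at 250 to 500 kb, with Myadm (a myeloid-associated membrane protein) and Cacng6 (a calcium channel subunit), at -9.82 points, at 500 to 750 kb, at -7.68 points, and at 1000 to 1250 kb, at -7.16 points.

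**Figure D4:**
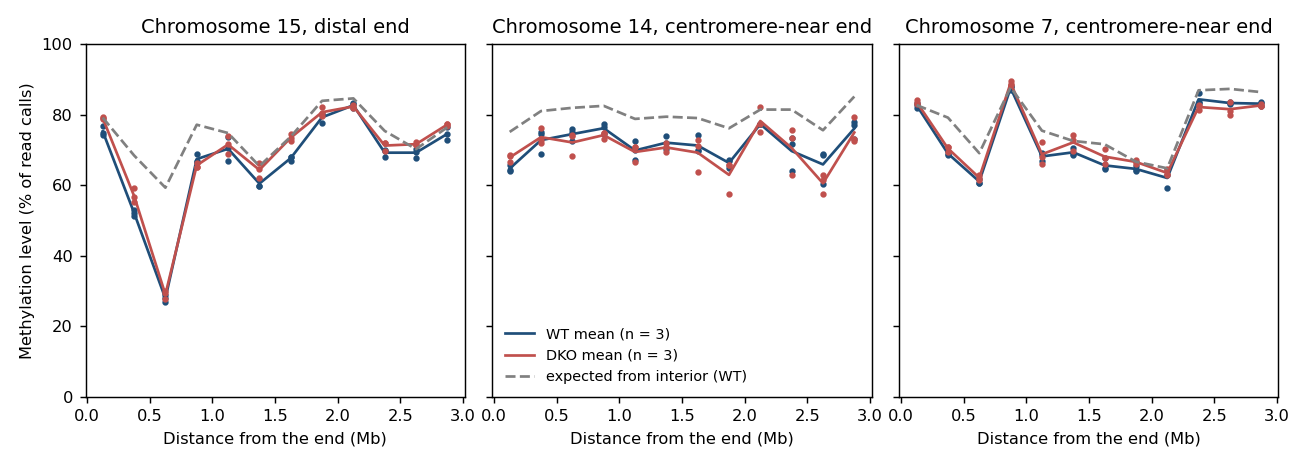
Methylation level (percent of read calls, vertical axis) in steps of 250 kb against distance from the end in Mb, for the 3 ends with the lowest gaps. Lines are the WT and DKO means, points are samples, and the dashed grey line is the level expected in WT from interior windows of equal CpG count; distal chromosome 15 drops to a WT mean of 27.9% at 500 to 750 kb, while chromosome 14 lies below its dashed line all along.

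Some other low steps of distal ends are named by the promoters placed in them, after their values were seen. The step at 1500 to 1750 kb of chromosome 17 with Adcyap1, which encodes a neuropeptide, had a gap of -13.8 points. The step at 1750 to 2000 kb of chromosome 19 with Emx2, a homeobox gene of the forebrain and urogenital tract, had -11.8 points, and the next step with Vax1, another homeobox gene, had -8.07 points. The step at 1000 to 1250 kb of chromosome 2 with Bhlhe23, a neural helix-loop-helix factor, had -9.52 points. The outermost 250 kb of distal chromosome 14, not named by a promoter here, had -8.64 points, lower than the step with Vax1. Steps below -10 points made up 5 of 228 distal steps (2.19%), 3 of 228 centromere-near steps (1.32%) and 0.952% of interior steps. The distal ones lay at 250 to 1000 kb of chromosome 15 and in the lowest steps of chromosomes 17 and 19. All the centromere-near ones lay on chromosome 14.

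Promoters within the ends were unmethylated for the most part. Of the placed RefSeq promoters with at least 8 CpGs and 20 or more reads per sample throughout, 261 of 282 near centromeres (92.6%) and 363 of 399 at distal ends (91.0%) had a mean level below 10%, against 90.1% in the interior. At the distal end of chromosome 7 lies an imprinted domain, in which genes are read from only one parental copy. There the promoter of Kcnq1ot1, the imprinted noncoding RNA of this domain, read 47.3%, 37.3% and 13.5% in WT and 32.2%, 26.3% and 31.9% in DKO, so the groups overlapped. The promoters of Hnrnpa1 on chromosome 15 and of Ets2, an ETS transcription factor gene on chromosome 16, had no methylated call in any sample.

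The comparison of DKO with WT asks whether loss of Tet2 and Tet3 moved methylation at the ends. As sums over all 19 chromosomes, DKO levels were higher than WT by 0.661 points ± 0.616 (SE, n = 3 per group) at the centromere-near ends and by 1.17 points ± 0.617 at the distal ends. Neither passed the two-sided exact permutation test (p = 0.4 and p = 0.3, adjusted 0.4 and 0.35), for which 3 against 3 samples cannot go below 0.1. Without DKO replicate 2 the differences were 1.24 and 1.76 points, and without DKO replicate 3 they were 0.243 and 0.866 points. The centromere-near difference was -0.398 points with high-copy windows kept and 1.23 points on the same CpGs with equal weight. The distal one was 0.270 points with ends of 1 Mb, 1.33 with ends of 5 Mb and 1.53 with equal weight. By exact permutation, these had p = 0.2 with high-copy windows kept, 0.8 with 1 Mb ends, and 0.1 with 5 Mb ends and with equal weight.

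The distal gap itself was smaller in DKO. It was -1.46 points ± 0.0203 (SD, n = 3) in WT and -1.17 points ± 0.0857 in DKO, a difference of 0.290 points ± 0.0508 (SE; exact permutation test, p = 0.1, the smallest possible, adjusted 0.175). All 3 DKO samples lay above all 3 WT samples. With ends of 1 Mb in place of 3 Mb the difference was -0.0553 points (p = 0.5 by exact permutation), the opposite direction. By step of 250 kb, it was -0.396 points in the outermost step, -0.141 points at 500 to 750 kb and 0.616 points at 2750 to 3000 kb. At the centromere-near ends the gap differed by -0.0792 points (p = 0.3 by exact permutation), with overlapping groups.

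The difference between groups varied with CpG count. In distal windows with 1 to 2 CpGs DKO exceeded WT by 0.134 points, and the groups overlapped. It exceeded WT by 1.37 points ± 0.268 (SE) at 6 to 10 CpGs, by 2.08 ± 0.123 at 11 to 20 and by 2.86 ± 0.241 at 21 to 40, with every DKO sample above every WT sample in each of these classes (p = 0.1 each by exact permutation). In the interior the same 3 classes gave 0.946, 1.95 and 2.37 points. Near centromeres the class of 21 to 40 CpGs stood out with only 1.08 points, and its gap was 0.757 points in WT and -0.400 points in DKO, a difference of -1.16 points (exact permutation test, p = 0.1) with groups that did not overlap.

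The classes by mean level were drawn with the DKO samples included, so that the lowest and highest classes have little room for a difference. At distal ends, windows with a mean level of 50% to 80% read 65.4% ± 0.10 (SD) in WT and 72.4% ± 0.264 in DKO, and those of 10% to 50% read 24.3% ± 0.370 and 29.5% ± 0.476. Near centromeres the same classes differed by 6.55 and 4.43 points, and in the interior by 6.79 and 5.13 points. In all 3 places all 3 DKO samples exceeded all 3 WT samples in these classes (p = 0.1 by exact permutation).

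Over the single ends the DKO minus WT difference ranged from -1.26 points on chromosome 17, -0.365 on chromosome 6 and -0.00627 on chromosome 18 to 1.88 on chromosome 4, 2.21 on chromosome 16 and 2.62 on chromosome 15 at the distal side. Near centromeres it ranged from -1.05 on chromosome 1, -0.803 on chromosome 3 and -0.710 on chromosome 14 to 1.28 on chromosome 11, 1.60 on chromosome 17 and 1.93 on chromosome 19. All 3 DKO samples exceeded all 3 WT samples at 8 of 19 distal and 2 of 19 centromere-near ends, and this was so for 30.2% of all blocks. The reverse held at 0 ends of either kind, with 0.493% of all blocks. The DKO gap lay wholly above the WT gap at 6 distal and 2 centromere-near ends, with 21.1% of all blocks doing so. It lay wholly below at 3 distal and 6 centromere-near ends, with 30.9% of all blocks.

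Ends with more CpGs per window had the larger differences. Over the 19 distal ends, Spearman's rho between CpGs per window and the DKO minus WT level was 0.744, and over the 19 centromere-near ends it was 0.879. These are descriptions of ends that share their 6 libraries, and reads per CpG and base composition vary with density as well. The density ranged from 4.43 CpGs per window at distal chromosome 17, which had the lowest difference, to 14.9 at distal chromosome 4. The DKO minus WT difference in the gap, which is matched for CpG count, had a rho of 0.654 with density over all 38 ends, 0.856 near centromeres and 0.530 at distal ends. The gap averaged over the 6 samples had a rho of -0.0539 over all 38.

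**Figure D5:**
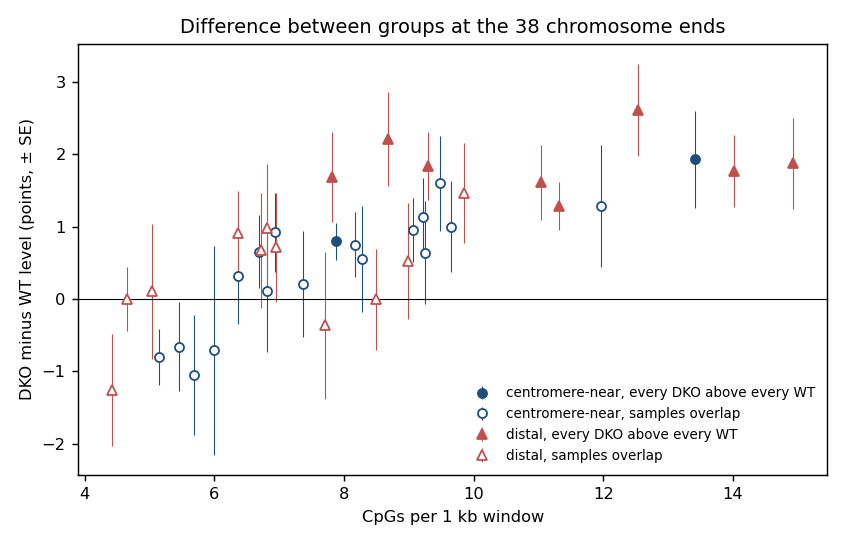
DKO minus WT level (points ± SE, vertical axis) against CpGs per 1 kb window for the 19 centromere-near ends (circles) and 19 distal ends (triangles); filled symbols mark ends where all 3 DKO samples exceeded all 3 WT samples. Ends with under 6 CpGs per window lie at or below 0.108 points, and those with over 11 lie at 1.28 points or more.

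As blocks of 3 Mb, 6 of 19 distal and 2 of 19 centromere-near ends passed the quasi-binomial test at an adjusted p under 0.05 over all 812 blocks, all of them higher in DKO, with 18.1% of all blocks called. The distal ones were those of chromosomes 4, 5, 7, 11, 15 and 16. Chromosome 16 read 81.0%, 80.1% and 81.1% in WT and 83.7%, 81.8% and 83.3% in DKO (adjusted p = 0.00689, quasi-binomial model), and chromosome 15, with the values above, had the lowest adjusted p of the ends, 0.00335. Near centromeres these were chromosomes 17 and 19. Chromosome 19 read 67.7%, 67.2% and 67.8% in WT and 70.4%, 68.2% and 69.8% in DKO (adjusted p = 0.0224, quasi-binomial model). The groups did not overlap at any called end but that of chromosome 17, where DKO replicate 2 lay just below WT replicate 2.

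These block calls were sensitive to the libraries. Without DKO replicate 2 the counts were 12 of 19 distal and 7 of 19 centromere-near ends, and 432 of all 812 blocks were called. Leaving out any other sample gave 0 to 2 distal and 0 centromere-near ends, and 9 to 51 of all blocks. In this test all blocks received the same estimate of spread, so a block's own scatter did not enter its p.

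Of single windows, 127 of 19841 tested at distal ends and 72 of 16121 near centromeres were called, at an adjusted p under 0.05 (quasi-binomial model) and a difference of at least 10 points. These are 0.640% and 0.447% of those tested, and 0.506% of all 771948 windows were called, so both shares lay near the background. DKO was higher in 126 of the distal and 71 of the centromere-near calls, with 0.498% of all windows called higher and 0.00751% called lower. At distal ends the called windows had a median of 46.1% in WT and 80.9% in DKO, and near centromeres of 37.9% and 76.4%. The ends with the most calls were distal chromosome 15 with 22 of 1603 tested windows, distal chromosome 11 with 21 of 1944 and centromere-near chromosome 19 with 18 of 1736. Distal chromosome 8 had 11 of 1030. Counts of calls depend on the windows tested, which ranged from 151 to 2131 over the ends. All 3 DKO samples exceeded all 3 WT samples in 9.84% of distal and 8.67% of centromere-near windows, with 9.06% over all windows. The 3 DKO samples lay below the 3 WT samples in 3.604% and 3.52%, with 3.74% over all windows.

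The number of calls depended on the libraries, the minimum of reads and the test. Without DKO replicate 2 only 1 distal and 0 centromere-near windows were called by the quasi-binomial test (1831 and 1322 had an unadjusted p under 0.05), and leaving out another sample gave 15 to 27 and 8 to 14. Of all 771948 tested windows, 29 were called without DKO replicate 2 and 410 to 789 without another sample. With all 6 samples, 11 distal and 4 centromere-near windows were called at a minimum of 10 reads and 9 and 6 at a minimum of 40. With the replicate number as a block the quasi-binomial test called 0 and 0 (1397 and 996 had an unadjusted p under 0.05). The test with limma called 0 at either kind of end, where 1558 distal and 1239 centromere-near windows had an unadjusted p under 0.05.

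Windows are named here from the 10 largest differences of each kind of end, among called windows whose groups did not overlap. These windows differed by 43.4 to 53.7 points at distal ends and by 39.6 to 48.9 points near centromeres. The largest distal one, on chromosome 15 (chr15:101226001-101227000), had 11 CpGs, read 24.0%, 26.1% and 52.0% in WT and rose to 85.4%, 87.1% and 90.7% in DKO. On chromosome 5 (chr5:150137001-150138000) a window of 26 CpGs read 31.03%, 35.5% and 40% in WT and 92.1%, 88.0% and 87.3% in DKO. A window at distal chromosome 15 that overlaps a placed promoter of Galnt6, an enzyme that starts mucin-type O-glycans, read 32.4%, 52.7% and 52.9% in WT and 98.2%, 91.5% and 87.1% in DKO.

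Near centromeres the largest was a window of 25 CpGs on chromosome 10 (chr10:5725001-5726000), which read 33.9%, 50% and 25.4% in WT and 81.2%, 87.2% and 87.5% in DKO. A window of 10 CpGs on chromosome 19 lies 6623 bases from the promoter of Malat1, an abundant nuclear noncoding RNA, and read 51.0%, 45.0% and 42.9% in WT and 89.4%, 87.9% and 82.5% in DKO. In each of these 5 windows every DKO sample was above every WT sample, which the rule for choosing them required.

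Both windows called lower in DKO are named after their values were seen. On distal chromosome 11 (chr11:120215001-120216000), 4942 bases from the promoter of Actg1, the gene of cytoplasmic gamma-actin, the samples read 40.98%, 53.8% and 33.3% in WT and 14.6%, 15.6% and 22.1% in DKO. Near the centromere of chromosome 7 (chr7:5461001-5462000) they read 95.7%, 97.9% and 98.8% in WT and 75%, 87.7% and 79.2% in DKO. The groups did not overlap at either.

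Of the called windows 8 of 127 at distal ends (6.30%) and 3 of 72 near centromeres (4.17%) were within 2000 bases of a placed promoter, beside 7.97% and 6.88% of the windows tested there. Tested as whole promoters, 0 of the 10338 with enough reads were called in the quasi-binomial test over the genome (0% in either direction). An unadjusted p under 0.05 was found for 11 of 399 at distal ends, 7 of 282 near centromeres and 415 of 9657 in the interior. Mean promoter levels were 3.97% ± 0.827 (SD, n = 3) in WT and 4.02% ± 0.202 in DKO at distal ends, and 2.39% ± 0.201 and 2.52% ± 0.286 near centromeres.

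A few promoters of the ends are given for their size of difference, chosen after the values were seen. The promoter of Csf2ra, a subunit of the GM-CSF receptor, lies 38 kb from the distal end of chromosome 19 and read 72.4%, 70.4% and 59.1% in WT and 90.7%, 85.8% and 96.7% in DKO, with an unadjusted p of 0.0104 and an adjusted p of 0.810 in the quasi-binomial model. A promoter of Erg, an ETS transcription factor gene needed by blood stem cells, lies at distal chromosome 16 and read 7.5%, 11.3% and 5.88% in WT and 19.1%, 30.0% and 37.1% in DKO. It had as few as 17 reads in a sample and was not tested. At both, the groups did not overlap.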

How the data were processed

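The authors deposited raw counts per CpG: for each of 20451903 CpGs and each of the 6 samples, a count of methylated read calls and one of total read calls, per the file header. The submitters' processing notes name BSMAP 2.74 and mm9. How reads were trimmed, filtered or cleared of PCR duplicates is not given in the sources used here. Reads that share a molecule would make counting error larger than the counts imply. There were 0 columns of other samples, 0 CpGs listed more than once and 0 values with more methylated than total reads.

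Counts were summed over 1 kb windows with Python 3.11.15, NumPy 2.4.6, SciPy 1.17.1 and pandas 2.3.3. Windows above 3 times the median of 23.3 reads per CpG, summed over the 6 samples, were left out. The expected level of an end weights interior levels by the reads of the end in each class of CpG count (1 to 30 singly, 31 to 40, 41 to 60 and above 60), within a sample. The gap is the measured minus the expected level.

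Single values were tested by exact permutation over samples. Windows of 3 or more CpGs that had 20 or more reads per sample throughout, blocks of 3 Mb with at least 1000 reads, and promoters were each tested by a quasi-binomial model with dispersion moderated across all features and floored at 1, an F test and Benjamini-Hochberg adjustment over all autosomal features, and limma 3.58.1 in R 4.3.3 was an alternative on log2 ratios. Replicate numbers were not used as pairs, since the correlations of same-numbered samples were not all over 0.1.

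Of 15382 autosomal RefSeq promoters of at least 8 CpGs, 14010 (91.1%) were placed at 1 position of the table by the spacing of all their CpGs. 71 matched several positions and were not used, and no promoter of chromosome 18 was used here. The placed order broke that of RefSeq in 1 of 13992 neighbouring pairs. The windows' own sequence, exons and introns were not analysed here.

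The ends, the matching and the tests were chosen with earlier results of these data known. Ends were named for the 3 lowest and 3 highest gaps and differences of each kind, and windows for the 10 largest differences of each kind among those whose groups did not overlap. Steps of 250 kb, promoters, sequences, the relation to density and the settings that leave out chromosomes were chosen after the values were seen.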

Additional observations from a re-analysis of the deposited data

How the results depend on the processing

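Of 112 alternatives other than leaving out a sample, 82 were counted as unchanged. Levels and gaps among these kept their direction and side of any threshold, though not always their size. Numbers of called windows and blocks among these stayed close to the main number. Some alternatives not counted as unchanged also kept their direction, such as the distal gap difference as a mean of chromosomes. The distal gap was -2.09 with 1 Mb ends, -0.503 with 5 Mb ends and -3.99 without matching. Matching within a chromosome gave a centromere-near gap of -0.00630. With high-copy windows kept, the centromere-near level differed by -0.398 points, its gap was 1.07 and the gap differed by -1.77. With ends of 1 Mb the centromere-near gap was -0.349 and the distal gap differed by -0.0553, and with 5 Mb the centromere-near gap was 0.0159. Without matching the centromere-near gap was -1.14 and differed by -0.282. On the same CpGs with equal weight it was -0.268 and differed by 0.0205. On windows with 3 CpGs and 20 reads it differed by -0.188. As a mean of chromosomes it was -0.302 and differed by -0.258, and the distal gap differed by 0.161. Chosen after seeing the data, leaving out the ends of chromosome 7, 14 or 15 gave centromere-near gaps of 0.182, 0.0835 and -0.164. Each had an exact sign-flip p of 0.031, the smallest that 6 samples allow, although their signs differ. The causes were not tested.

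The called windows near centromeres and at distal ends were 4 and 11 with 10 reads, 6 and 9 with 40 reads, 0 and 0 with limma (unadjusted p under 0.05 in 1239 and 1558), and 0 and 0 with a replicate block (996 and 1397). Called blocks were 0 and 1 with limma, 4 centromere-near with the replicate block, 5 centromere-near on the same CpGs, and 14 of 57 distal with 1 Mb blocks. Over all blocks the calls were 87 with limma, 303 with the replicate block, 292 on the same CpGs and 409 of 2416 with 1 Mb blocks. Leaving out 1 sample gave 0 to 14 and 1 to 27 windows and 0 to 7 and 0 to 12 blocks. Over all autosomes 29 to 789 windows and 9 to 432 blocks were then called. Leaving out 1 sample gave distal gaps of -1.36 to -1.28 and centromere-near minus distal gaps of 1.17 to 1.27. Each had an exact sign-flip p of 0.0625, the smallest that 5 samples allow.

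Replicate numbers were not taken as pairs, since the correlations of same-numbered deviations were 0.166, 0.187 and 0.0786, although each sample correlated best with its own number. With the block, the level differences of 0.661 and 1.17 points had exact sign-flip p of 0.5 and 0.25, the latter the smallest that 3 pairs allow. At 3 to 6 reads per CpG, single CpGs were not compared.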
